A study of Abies pinsapo with 24 samples.

Results

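Needles of Abies pinsapo (Spanish fir) harvested in spring were compared with needles harvested in autumn at Ronda, the upper limit of the forest. The comparison used 5 of the 24 libraries in the series. They were chosen by their labels as needles of Ronda: 2 libraries of spring (May 2023, replicates 1 and 2, labelled trees 4 and 5) and 3 libraries of autumn (September 2022, replicates 1 to 3, labelled trees 4, 5 and 6). All came from untreated adult trees 30 to 50 years old growing at 1700 to 1800 m in Sierra de las Nieves. Replicate 3 of spring, labelled tree 6, was set aside because its transcripts were those of a root, as shown by the marker shares given before the results. The study sequenced RNA of needles and roots at Ronda and, lower on the mountains, at Yunquera in both seasons, and its title and design text name the response of the transcriptome to climate in nature as the question. The sources give 6 independent trees in one place and a larger number of random individuals in another, and they do not say whether libraries were pooled, so p-values measure the spread between these libraries. Season coincides with the year of harvest, and these cannot be told apart.

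Needles of firs live for several years, and a new set of shoots unfolds from the buds each spring. In conifers of cold mountains, needle cells are known to harden before winter, when hydrophilic protective proteins such as dehydrins accumulate, and to lose that hardiness in spring. Expansion of young tissue rests on wall-loosening enzymes, water channels and new rounds of DNA replication, while starch and soluble sugars are moved between storage and growth.

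Gene names in the text are the best protein hits of the fir features in other species, as the deposited table gives them, and roles are those known in those species. Where the table holds a gene model the feature appears as Gene and a number; the others appear as the place they take on a reference sequence, in bases from start to end. Levels are in CPM, read counts scaled to the same total in each library.  Differences are log2 fold changes, spring minus autumn, with the standard error (SE), and "rose", "fell" and "called" mean an adjusted p under 0.05 (quasi-likelihood test of edgeR, adjusted by Benjamini and Hochberg's method over the 20560 features tested). Levels are not divided by transcript length, so they are compared between seasons and not between genes, and "most abundant" refers to the highest count. Members named only to account for every call of a list were named after their values were seen.

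Photosynthesis transcripts were abundant in all 5 libraries and scarce in the one set aside. The light harvesting and photosystem list took 4.25 and 5.66% of the counts in spring and 2.91 to 4.67% in autumn. In the library set aside it took 0.0347% (95% Wilson interval 0.0338 to 0.0356), within the 0.0334 to 0.0977% of 11 root libraries. These are all root libraries except spring replicate 2 of the Ronda roots, which was left out of the root ranges and whose shares are not given. A list of 37 features enriched in roots was chosen after the data were seen. It took features at 20 CPM or more in the median Yunquera root library and at least 20 times the median needle library. They took 1.46% in the library set aside (interval 1.45 to 1.46) against 0.592 to 2.58% in the same 11 root libraries. In the 5 needle libraries these features took 0.293 and 0.104% in spring and 0.0498, 0.0168 and 0.0630% in autumn, so their share was higher in both spring libraries. Of the 35 that were tested, 2 were called higher in spring and 0 lower, and their part in the results below was not tested. Markers of pollen and male cones took 0.0168 and 0.0175% in spring and 0.0204 to 0.0222% in autumn, and filamentous fungal hits 0.115 and 0.127% against 0.111 to 0.136%. Total counts ran from 18517073 to 25119922 per library.

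Spring and autumn needles differed in 517 features, 2.51% of those tested. Of these, 248 were higher in spring (1.21%) and 269 lower (1.31%), and 364 had a best hit. In all 517 the spring and autumn libraries did not overlap, while among all tested features both spring libraries lay above all 3 autumn libraries in 19.5% and below them in 18.7%. The smallest called change was 0.61 on the log2 scale, and the median change over all tested features was 0.00. The number of calls depended on each library: it was 93 without spring replicate 1, 123 without spring replicate 2, 231 without autumn replicate 1, 279 without autumn replicate 2 and 196 without autumn replicate 3, and 56 of the 517 were called in every one of these 5 fits. It was also 343 without autumn replicate 3 of Yunquera, which shares the estimate of spread. With the labelled tree number as a block, 54 were called (0.263%), 13 higher (0.0632%) and 41 lower (0.199%), and all 54 were among the 517. In the block fit autumn replicate 3 has no spring library of its tree number and adds nothing to the Ronda estimate. That estimate rests on trees 4 and 5 alone, so losses with the block also reflect fewer libraries. With the library set aside put back, 453 were called (2.32%), 253 higher (1.3%) and 200 lower (1.03%), with 307 of them among the 517. DESeq2 called 1995 (9.7%), 1103 higher (5.36%) and 892 lower (4.34%), including 515 of the 517.

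**Figure D1:**
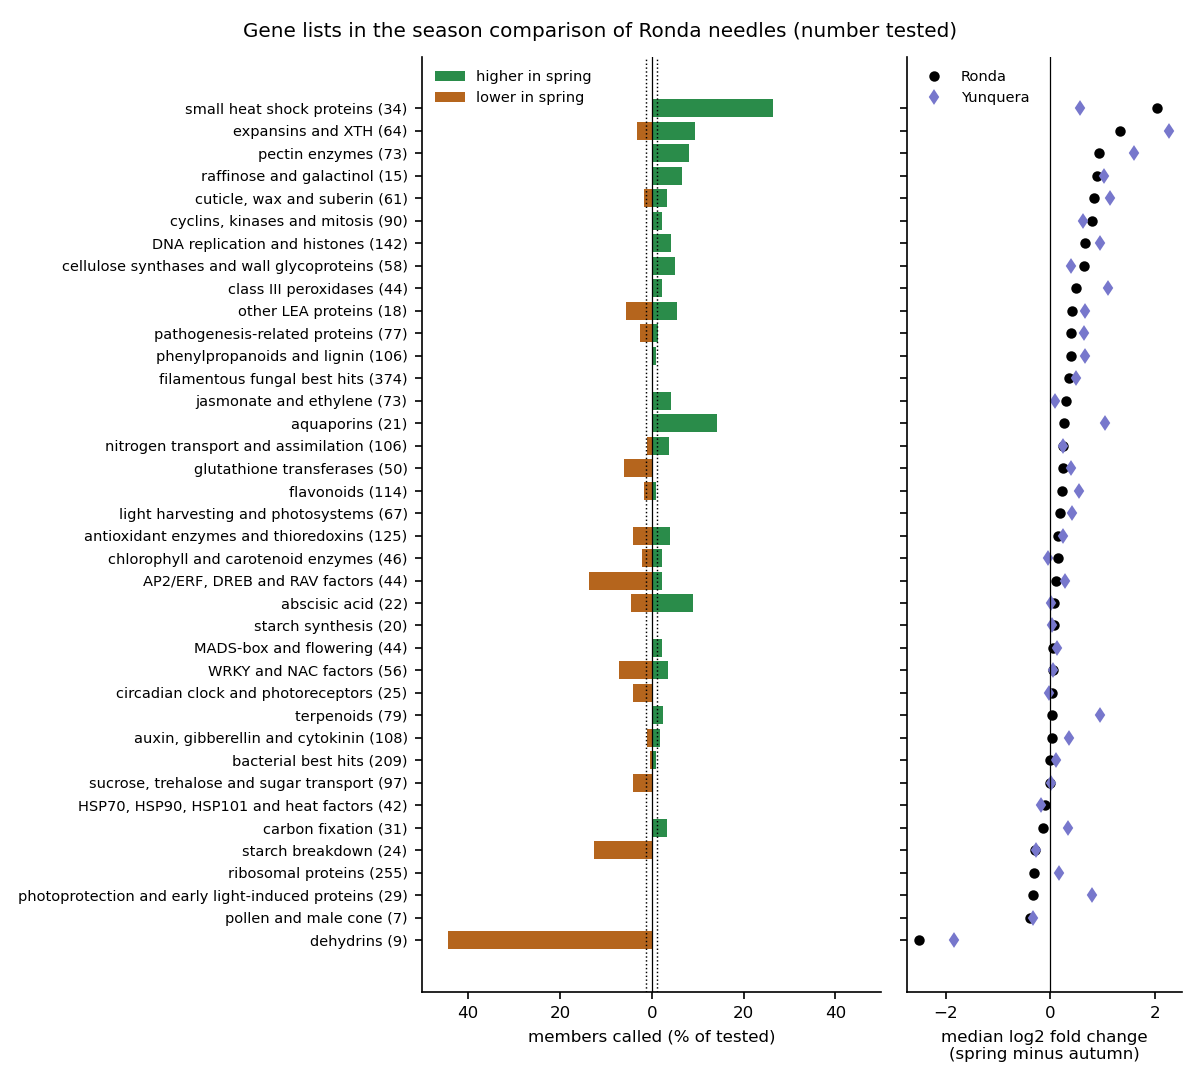
Share of tested members called higher (green, to the right) or lower (brown, to the left) in spring in each gene list, with the share among all features as dotted lines (1.21% higher, 1.31% lower), and the median log2 fold change of the tested members at Ronda (circles) and Yunquera (diamonds). Small heat shock proteins had the largest share of members higher and dehydrins the largest share lower.

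Dehydrins had the lowest median change of all lists and the largest share of falls. Of 10 listed dehydrins, known in these features by their protein domain, 9 were tested. Of these, 4 fell and 0 rose (44.4% called, against 2.51% of all features), and all 4 fell with the tree as a block too. Without spring replicate 2, 2 were called, and over the 5 fits that leave out a Ronda library the median change ran from -2.72 to -1.18. Dehydrins are hydrophilic proteins that protect membranes and enzymes in drying or freezing cells. Together they took 0.0428 and 0.0352% of the counts in spring and 0.40 to 1.34% in autumn, with no overlap. Gene_5374, the most abundant, stood at 180 and 58.1 CPM in spring and at 9690, 3079 and 5829 CPM in autumn (log2 fold change -5.71 ± 0.78, adjusted p = 0.00739). Gene_5437 stood at 42.7 and 21.5 CPM in spring and at 2858, 672 and 1480 CPM in autumn (-5.70 ± 0.71, adjusted p = 0.00494). In both, autumn replicate 1 was the highest library and spring replicate 2 the lowest. Gene_18854 changed less, from 159, 168 and 189 CPM in autumn to 34.7 and 25.6 CPM in spring (-2.51 ± 0.27, adjusted p = 0.00351). Gene_3530 was nearly absent in spring, at 0.763 and 0.898 CPM, and stood at 399.9, 221 and 215 CPM in autumn (-8.38 ± 0.70, adjusted p = 0.00268). The library set aside held 72.3 CPM of it, and with that library put back Gene_3530 missed the threshold (adjusted p = 0.223) while the other 3 were still called. The median change over the 9 tested dehydrins was -2.51.

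The other 5 tested dehydrins were not called, and 4 of them had higher means in spring. The feature on ap_1269 (1 to 932) stood at 14.4 and 124 CPM in spring and at 0.478, 0 and 0.510 CPM in autumn (adjusted p = 0.0988), and Gene_1133 at 82.2 and 88.4 CPM against 46.2, 23.3 and 50.5 CPM (adjusted p = 0.228). Proteins of the other late embryogenesis abundant (LEA) families, also hydrophilic protectants, had 1 of 18 tested members higher and 1 lower (11.1% called, against 2.51% of all features). LEA14-A (Gene_4579) fell from 577, 144 and 233 CPM in autumn to 16.5 and 5.56 CPM in spring (-4.85 ± 0.91, adjusted p = 0.0289). The desiccation-related protein PCC27-45 (Gene_7246), named after its values were seen, rose from 73.4, 87.1 and 85.9 CPM to 151 and 176 CPM (0.99 ± 0.18, adjusted p = 0.0246).

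Small heat shock proteins had the largest share of rises and the highest median change of all lists. They bind unfolding proteins and keep them from aggregating. Of 48 listed, 34 were tested. Of these, 9 rose and 0 fell (26.5% called, against 2.51% of all features), and 1 rose with the tree as a block. Their median change was 2.05, with all tested features at 0.00, and 30 of the 34 had a positive change. HSP17.7 (Gene_7362), a class II protein, stood at 186 and 70.9 CPM in spring and at 7.54, 7.78 and 7.43 CPM in autumn (4.08 ± 0.40, adjusted p = 0.00274). The 3 autumn libraries lay close together, and spring replicate 1 was the higher of the 2 spring libraries. The same order held in all 9 called members. The chloroplast protein HSP23 (Gene_12495), the one member called with the block, stood at 83.7 and 39.2 CPM in spring and at 5.84, 5.203 and 7.69 CPM in autumn (3.30 ± 0.38, adjusted p = 0.00412). HSP18.1 on ap_9838 (1 to 788) showed the widest spread in spring, at 145 and 25.2 CPM, against 4.46, 4.50 and 3.52 CPM in autumn (4.35 ± 0.74, adjusted p = 0.0181). HSP23 and HSP18.1 were named after their values were seen. The called changes ran from 2.12 to 4.35. The count was 2 without spring replicate 1, 8 without spring replicate 2, and 3, 4 and 5 without autumn replicates 1, 2 and 3.

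The most abundant small heat shock protein did not pass the test. SHSP-2 (Gene_4419) stood at 433 and 432 CPM in spring and at 483, 515 and 398 CPM in autumn, so the groups overlapped (-0.11 ± 0.17, adjusted p = 0.828). Of 42 tested members of the HSP70, HSP90, HSP101 and heat factor list 0 were called, near the share of all features (2.51%), with a median of -0.11. HSP90-5 (Gene_69931), a chloroplast chaperone and the most abundant of them, stood at 519 and 639 CPM in spring and at 754, 1124 and 932 CPM in autumn (-0.70 ± 0.19, adjusted p = 0.0995).

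**Figure D2:**
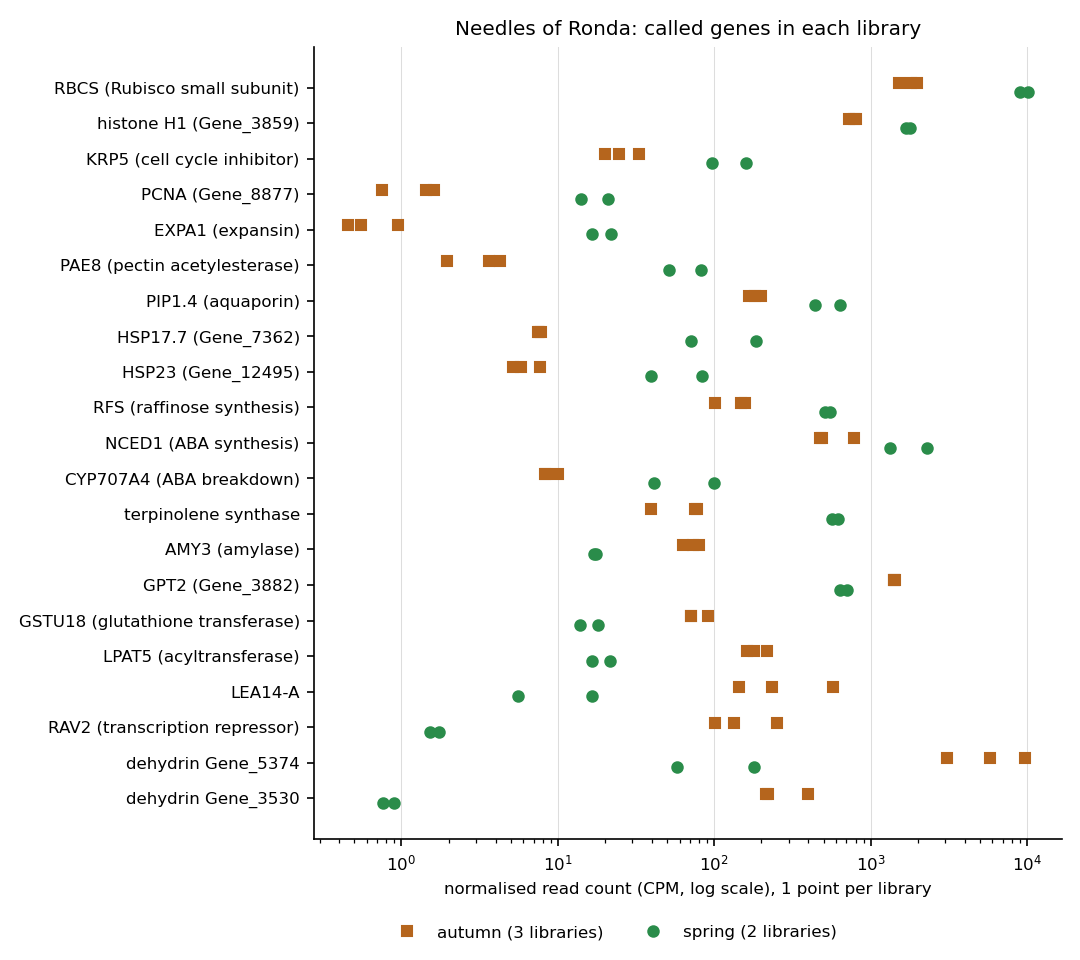
Normalised read counts (CPM, log axis) of 21 called genes in each of the 5 Ronda needle libraries, with autumn as brown squares and spring as green circles. The seasons are separate in every gene shown, as they were in all 517 called features from which these were taken. Examples are the dehydrin Gene_3530 at under 1 CPM in spring and RBCS at 8972 and 10140 CPM in spring.

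Among DNA replication and cell division genes the calls were all rises, mostly of histones. Histones and replication proteins took 0.985 and 0.965% of the counts in spring and 0.440 to 0.579% in autumn. Of 142 tested members 6 rose and 0 fell (4.23%, against 2.51% of all features), with a median change of 0.66. In 73 both spring libraries lay above all autumn libraries and in 6 below (19.5% and 18.7% of all features did). In bulk needles, more cells of a kind and more RNA per cell cannot be told apart. Histone H1 (Gene_3859), the linker histone that packs chromatin, stood at 1676 and 1781 CPM in spring and at 786, 726 and 806 CPM in autumn (1.16 ± 0.21, adjusted p = 0.0255). Histone H3.3 (Gene_1) stood at 314 and 319 CPM against 159, 113 and 136 CPM (1.22 ± 0.18, adjusted p = 0.0115). PCNA (Gene_8877), the sliding clamp of the replication fork, rose from 1.43, 0.749 and 1.61 CPM in autumn to 20.9 and 13.98 CPM in spring (3.78 ± 0.62, adjusted p = 0.0268). The other 3 that rose were also histones, 2 of type H1 and 1 of type H2A, by 0.81 to 1.54. With the tree as a block 0 of the list were called, and leaving out any one Ronda library left 0 or 1.

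Of 90 tested cyclins, kinases and mitotic proteins 2 rose and 0 fell, a share near that of all features (2.51%), and their median change was 0.79. KRP5 (Gene_12429), an inhibitor of cyclin-dependent kinases, stood at 96.3 and 160 CPM in spring and at 19.9, 32.8 and 24.7 CPM in autumn (2.31 ± 0.32, adjusted p = 0.00775), and was called with the block. The spindle protein TPX2 (Gene_40113) stood at 70.5 and 71.9 CPM against 34.6, 36.7 and 43.4 CPM (0.90 ± 0.17, adjusted p = 0.0314). TPX2 and PCNA were named after their values were seen. The list took 0.184 and 0.194% of the counts in spring and 0.122 to 0.131% in autumn.

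Among wall-loosening and pectin genes nearly all calls were rises. Expansins, which loosen the contacts between wall polymers, and xyloglucan endotransglucosylases (XTH), which cut and rejoin xyloglucan chains, had 64 tested members. Of these, 6 rose and 2 fell (12.5% called, against 2.51% of all features, and 1 and 0 with the block), and the median change was 1.34. Leaving out any one Ronda library left 1 to 3 that rose and 0 to 2 that fell. EXPA1 (ap_34612, 1 to 629) stood at 21.8 and 16.6 CPM in spring and at 0.955, 0.458 and 0.552 CPM in autumn (4.87 ± 0.66, adjusted p = 0.00706). XTHA (Gene_66822) stood at 31.9 and 7.36 CPM in spring and at 0.318, 0.125 and 0.552 CPM in autumn (5.86 ± 1.06, adjusted p = 0.0238), and was the member called with the block. In the library set aside XTHA stood at 168 CPM and EXPA1 at 0.922 CPM. EXPA8, EXPB16 and both features with the best hit XTH8 were the other 4 that rose, by 2.70 to 4.34.

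The 2 that fell share the best hit XTH9. Gene_18492 stood at 1.43 and 3.99 CPM in spring and at 496, 109 and 378 CPM in autumn (-6.93 ± 1.27, adjusted p = 0.0250). Gene_44275 followed it in the 5 Ronda libraries, at 1.05 and 3.76 CPM against 425, 89.6 and 311 CPM. The 2 features came apart in spring at Yunquera, at 2.84 to 10.3 CPM of Gene_18492 and 11.4 to 45.0 CPM of Gene_44275, with log2 fold changes of -3.44 and -1.35 there; whether they share reads was not tested. Another feature with this best hit, Gene_3615, was the most abundant of the list and was not called (431 and 619 CPM in spring, 177, 167 and 214 CPM in autumn, adjusted p = 0.323).

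Pectin enzymes had 73 tested members, of which 6 rose and 0 fell (0 with the block, and 0 or 1 without any one Ronda library), with a median change of 0.94. These rises were 8.22% of the tested members, against 2.51% called among all features. Pectin acetylesterases take acetyl groups off pectin and pectate lyases cut its chain. PAE8 (Gene_10227) stood at 51.3 and 82.7 CPM in spring and at 3.61, 1.96 and 4.25 CPM in autumn (4.36 ± 0.77, adjusted p = 0.0215). A second PAE8 feature (Gene_13042), PAE3, 2 pectate lyases and GAUT1, a galacturonosyltransferase that builds pectin, were the other members that rose. Of these, the pectate lyase LAT59 (Gene_57242) had no count in autumn and stood at 1.34 and 1.52 CPM in spring, at least 31.6-fold higher (bound of 3 counts over the autumn group). Among cellulose synthases, endoglucanases and wall glycoproteins 3 of 58 rose and 0 fell (5.17%, against 2.51% of all features, and 0 with the block). Endoglucanase 6 (Gene_33177), which trims glucan chains, stood at 16.3 and 30.5 CPM in spring and at 2.55, 2.33 and 1.66 CPM in autumn (3.42 ± 0.44, adjusted p = 0.00554). CESA1 (Gene_30540), a catalytic subunit of cellulose synthase and the most abundant of the list, overlapped between seasons, at 173 and 264 CPM against 190, 120 and 193 CPM (adjusted p = 0.641).

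**Figure D3:**
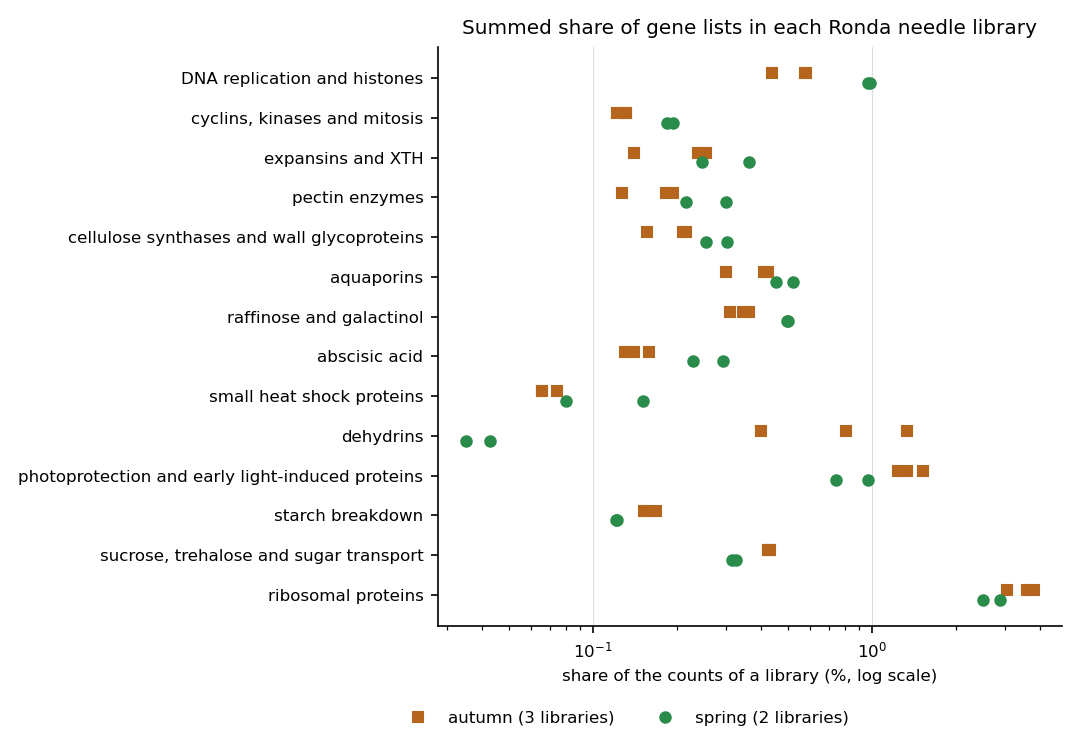
Summed share of the counts (%, log axis) of 14 gene lists in each Ronda needle library, with autumn as brown squares and spring as green circles. Replication and histone genes took 0.965 and 0.985% in spring and at most 0.579% in autumn, and dehydrins at most 0.0428% in spring and at least 0.40% in autumn.

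The called water channels were all of the plasma membrane and rose. They were 14.3% of the tested members, against 2.51% called among all features. Of 21 tested aquaporins 3 rose and 0 fell (0 with the block, and 0 to 2 without any one Ronda library), and the median change was 0.26. PIP1.4 (Gene_2961) stood at 638 and 439 CPM in spring and at 183, 167 and 199 CPM in autumn (1.56 ± 0.22, adjusted p = 0.00794). PIP2-8 (Gene_3516) rose by 1.17 ± 0.20 and PIP2-4 (Gene_14482) by 1.12 ± 0.25. PIP1-2 (Gene_3332), the most abundant, was not called, at 976 and 1094 CPM in spring and 890, 720 and 931 CPM in autumn (adjusted p = 0.584).

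Both a synthesis and a breakdown enzyme of abscisic acid rose. Abscisic acid is the hormone of drought and dormancy. NCED1 (Gene_69197) cleaves carotenoids in the first committed step to it and stood at 1336 and 2286 CPM in spring and at 486, 782 and 476 CPM in autumn (1.64 ± 0.34, adjusted p = 0.0370). CYP707A4 (Gene_40730), the hydroxylase that inactivates the hormone, stood at 99.3 and 41.3 CPM in spring and at 8.44, 8.33 and 10.02 CPM in autumn (2.98 ± 0.34, adjusted p = 0.00420). The larger level of NCED1 was seen in spring replicate 2 and that of CYP707A4 in spring replicate 1. The bZIP factor DPBF4 (Gene_10139), which acts in abscisic acid responses, fell from 106, 80.3 and 76.3 CPM to 33.7 and 41.8 CPM (-1.22 ± 0.23, adjusted p = 0.0314). Thus 2 of 22 tested members rose and 1 fell (13.6% called, against 2.51% of all features, and 0 with the block), with a median of 0.08. Without any one Ronda library 1 or 2 rose and 0 fell. The library set aside held 2.38 CPM of NCED1, and with it put back NCED1 missed the threshold (adjusted p = 0.707).

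Starch-degrading enzymes and sugar transporters fell where they were called. Of 24 tested starch breakdown genes 0 rose and 3 fell (12.5% called, against 2.51% of all features, and 0 with the block), with a median of -0.30. In 12 both spring libraries lay below all autumn libraries (18.7% of all features did). The count of falls was 0 without spring replicate 1 or 2, 2 without autumn replicate 1 or 3 and 3 without autumn replicate 2. The chloroplast amylase AMY3 (ap_33391, 1 to 1827) stood at 17.0 and 17.5 CPM in spring and at 79.9, 73.4 and 63.1 CPM in autumn (-2.06 ± 0.26, adjusted p = 0.00535). The BAM1 feature on ap_31763 (1 to 2851), a maltose-forming amylase, fell from 10.8, 22.9 and 10.1 CPM to 2.15 and 3.03 CPM (-2.49 ± 0.45), and the plastid glucanotransferase DPEP fell by 1.11 on the log2 scale. A more abundant BAM1 feature (Gene_7202) was not called, at 190 and 246 CPM in spring and 271, 307 and 238 CPM in autumn (-0.32, adjusted p = 0.527). Of 20 tested starch synthesis genes 0 were called, near the share of all features (2.51%). The starch synthase GBSS1 (Gene_39210) overlapped between seasons at 452 and 931 CPM in spring and 576, 732 and 540 CPM in autumn (0.17 ± 0.33, adjusted p = 0.874).

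Of 97 tested genes of sucrose, trehalose and sugar transport 0 rose and 4 fell (0 with the block; 0 without spring replicate 1, 1 without spring replicate 2 and 2 without autumn replicate 3). These falls were 4.12% of the tested members, against 2.51% called among all features. The plastid glucose-6-phosphate importer GPT2 (Gene_3882) stood at 635 and 707 CPM in spring and at 1414, 1400 and 1435 CPM in autumn (-1.08 ± 0.14, adjusted p = 0.00580). A second GPT2 feature, the monosaccharide transporter STP7 and the sucrose synthase SUS2 also fell, by 1.31, 1.47 and 2.74 on the log2 scale. The galactosyltransferase RFS (ap_60466, 6 to 1730), which makes raffinose, rose from 148, 102 and 157 CPM to 549.6 and 509.8 CPM (1.97 ± 0.31, adjusted p = 0.0127). RFS was the only called member of 15 tested in the raffinose and galactinol list (6.67%).

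The small subunit of Rubisco rose while most photosynthesis genes did not pass the test. RBCS (ap_2297, 1 to 932), part of the enzyme that fixes carbon dioxide, stood at 8972 and 10140 CPM in spring and at 1508, 1818 and 1967 CPM in autumn (2.44 ± 0.33, adjusted p = 0.00689). It was the only called member of 31 in the carbon fixation list (3.23%, against 2.51% of all features) and was called with the block. The library set aside held 3.54 CPM, and with it put back RBCS missed the threshold (adjusted p = 0.539). The plastid aldolase FBA1 (Gene_4041), the most abundant member, overlapped at 12010 and 16450 CPM against 8221, 14110 and 11900 CPM (0.32 ± 0.34, adjusted p = 0.707). Of 67 tested light harvesting and photosystem genes 0 were called (2.51% of all features were), with a median of 0.19. LHCB4.3 (ap_3100, 1 to 1268), an antenna protein, stood at 7545 and 10760 CPM in spring and at 4003, 7475 and 4737 CPM in autumn (0.76 ± 0.32, adjusted p = 0.253). Autumn replicate 2 was close to spring replicate 1 in this gene.

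Photoprotection genes, among them early light-induced proteins (ELIPs) that bind pigments under excess light or cold, had 0 of 29 tested members called. This was near the share of all features (2.51%), and the median was -0.33. In 10 members both spring libraries lay below all autumn libraries and in 0 above (18.7% and 19.5% of all features did). The most abundant ELIP (Gene_2963) stood at 2795 and 2175 CPM in spring and at 2867, 4646 and 5078 CPM in autumn (-0.76 ± 0.65, adjusted p = 0.622). Pheophytinase (PPH, Gene_60530), an enzyme of chlorophyll breakdown, fell from 92.7, 128 and 84.2 CPM to 49.6 and 45.3 CPM (-1.10 ± 0.22, adjusted p = 0.0346). The beta-carotene hydroxylase CA2 (Gene_65734), which leads to zeaxanthin, rose from 4.09, 2.12 and 1.91 CPM to 13.2 and 8.42 CPM (2.00 ± 0.43, adjusted p = 0.0465). These were the 2 called of 46 chlorophyll and carotenoid enzymes (4.35%, against 2.51% of all features, and 0 with the block).

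Among transcription factors, most calls in the AP2/ERF list were falls. Of 44 tested 1 rose and 6 fell (15.9% called, against 2.51% of all features, and 0 and 1 with the block), with a median of 0.11. The falls were 2 without spring replicate 1 or 2, 3 without autumn replicate 1 or 3 and 5 without autumn replicate 2. With the library set aside put back, 3 rose and 2 fell. RAV2 (Gene_52918), a repressor that delays flowering in Arabidopsis, stood at 1.53 and 1.74 CPM in spring and at 134, 252 and 101 CPM in autumn (-6.63 ± 0.69, adjusted p = 0.00310), and was called with the block. DREB2A (Gene_75725), an activator of drought and heat responses in Arabidopsis, stood at 5.34 and 4.77 CPM in spring and at 23.1, 38.0 and 24.5 CPM in autumn (-2.49 ± 0.28, adjusted p = 0.00397). It and the related DREB2B (-2.70 ± 0.53) were named after their values were seen, as were ERF2 (-4.11 ± 0.67) and ERF071 (-1.03 ± 0.20). WRI1 (-4.92 ± 0.98), an activator of oil synthesis in seeds, was the sixth. ERF003 (Gene_69823) rose from 0.425, 0.4995 and 0.467 CPM to 10.4 and 5.22 CPM (4.06 ± 0.81, adjusted p = 0.0346). It stood at 63.6 CPM in the library set aside.

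Of 56 tested WRKY and NAC factors 2 rose and 4 fell (10.7% called, against 2.51% of all features, and 0 and 1 with the block). NAC056 (Gene_78024) stood at 4.77 and 3.99 CPM in spring and at 39.96, 38.05 and 30.0 CPM in autumn (-3.04 ± 0.29, adjusted p = 0.00274). NAC068 (Gene_76817), the member called with the block and named after its values were seen, fell from 102, 117 and 55.6 CPM to 3.91 and 6.51 CPM (-4.13 ± 0.41). NAC045 (Gene_22882) rose from 21.8, 25.0 and 21.8 CPM to 59.9 and 56.9 CPM (1.35 ± 0.17, adjusted p = 0.00535). The clock gene ELF3 (Gene_31887), part of the complex that represses growth genes in the evening, stood at 44.4 and 55.2 CPM in spring and at 126, 192 and 146 CPM in autumn (-1.64 ± 0.23, adjusted p = 0.00867). It was the only called member of 25 in the clock and photoreceptor list (4.0%, against 2.51% of all features). The design text places the harvests at midday in both seasons.

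Redox and detoxification genes moved both ways. Among antioxidant enzymes and thioredoxins 8.0% of the tested members were called, against 2.51% of all features. Of 125 tested antioxidant enzymes and thioredoxins 5 rose and 5 fell (0 with the block), and 1 to 3 rose and 1 to 4 fell without any one Ronda library. The monodehydroascorbate reductase MDAR5 (Gene_31739), which regenerates ascorbate, stood at 25.5 and 21.3 CPM in spring and at 150, 242 and 183 CPM in autumn (-3.03 ± 0.29, adjusted p = 0.00274). Glutathione reductase, the chloroplast ascorbate peroxidase APXT, a peroxiredoxin and a thioredoxin-like protein were the others that fell. Of those that rose 3 share the best hit L-ascorbate oxidase homolog, and whether they act as antioxidants was not tested. Bp10 (Gene_16078) among them stood at 115 and 108 CPM in spring and at 14.1, 13.4 and 18.4 CPM in autumn (2.86 ± 0.36, adjusted p = 0.00511). Its level in the library set aside was 212 CPM. The cytosolic ascorbate peroxidase APX2 and thioredoxin H4-1 were the other 2 that rose. Glutathione transferases, which attach glutathione to foreign or damaged compounds, had 0 of 50 members higher and 3 lower (6.0% called, and 2 with the block). GSTU18 (Gene_22298) stood at 13.9 and 18.02 CPM in spring and at 70.7, 90.6 and 71.1 CPM in autumn (-2.28 ± 0.20, adjusted p = 0.00274).

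In the pathogenesis-related, jasmonate and ethylene, and nitrogen lists the called shares were somewhat above that of all features (2.51%). Of 77 pathogenesis-related proteins 1 rose and 2 fell (3.9%, against 2.51% of all features, and 0 with the block). Defensin-1 (Def1, ap_2618, 1 to 1415), a small antifungal peptide, stood at 326 and 343 CPM in spring and at 6702, 1227 and 2380 CPM in autumn (-3.36 ± 0.69, adjusted p = 0.0381), with autumn replicate 1 far above the other libraries. A glucanase, OLE9 (Gene_49690), fell too (-2.16 ± 0.37), while another glucanase (Gene_34285) rose (2.32 ± 0.32). Of 73 jasmonate and ethylene genes 3 rose and 0 fell (4.11%, and 0 with the block). The jasmonate repressor TIFY6B (Gene_21467) rose from 45.3, 47.7 and 46.9 CPM to 85.9 and 119 CPM (1.13 ± 0.21, adjusted p = 0.0280). The jasmonate pathway enzyme allene oxide cyclase and OPR1 were the others that rose. Of 106 nitrogen genes 4 rose and 1 fell (4.72%, and 0 with the block). Among those that rose, glutamate decarboxylase (GAD, Gene_4838), which makes gamma-aminobutyrate, went from 9.92, 6.24 and 8.45 CPM to 41.8 and 53.01 CPM (2.53 ± 0.32, adjusted p = 0.00535).

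Terpene and flavonoid enzymes were called at about the share of all features (2.51%), with 2 of 79 and 3 of 114. Terpinolene synthase (Gene_59922), a monoterpene enzyme of resin, stood at 623 and 569 CPM in spring and at 39.3, 77.9 and 75.2 CPM in autumn (3.22 ± 0.57, adjusted p = 0.0215). Linalool synthase TPS-Lin-1 (ap_83617, 1 to 1108), another monoterpene enzyme, rose by 3.08 ± 0.65, and these were the 2 called of 79 terpenoid genes. With the library set aside put back, which held 2.23 CPM of terpinolene synthase, neither passed (adjusted p = 0.296 and 0.347), and leaving out any one Ronda library left 0 terpenoid calls. The flavonoid falls were 0 without spring replicate 1 or 2 and 1 without autumn replicate 1 or 3. Of 114 flavonoid genes 1 rose and 2 fell: an anthocyanidin reductase (Gene_73885), which forms epicatechin units of tannins, rose from 67.3, 83.6 and 62.7 CPM to 165 and 186 CPM (1.30 ± 0.17, adjusted p = 0.00554). Flavonol synthase (FLS, Gene_67646) fell from 19.1, 12.9 and 24.3 CPM to 0.763 and 1.01 CPM (-4.39 ± 0.71, adjusted p = 0.0153), and a flavonoid 3',5'-hydroxylase (Gene_66862) fell by 2.33 on the log2 scale. In the cuticle, wax and suberin list the acyltransferase LPAT5 (Gene_22765) fell from 219, 180 and 162 CPM to 16.7 and 21.5 CPM (-3.29 ± 0.31, adjusted p = 0.00274) and was called with the block, while CYP77A1 and RAM2, enzymes tied to cutin, rose by 1.11 and 1.99. Ribosomal proteins had 0 of 255 called (2.51% of all features were) and a median of -0.32. In 93 of them both spring libraries lay below all autumn libraries and in 7 above (18.7% and 19.5% of all features did).

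The 8 largest rises with a best hit were picked by the size of their change, so their levels near 0 in autumn come with that choice. A lipid-transfer protein (Gene_2973), of a family that carries lipids at the cell surface, stood at 54.7 and 418 CPM in spring and at 0.159, 0.125 and 0.255 CPM in autumn (10.31 ± 2.02, adjusted p = 0.0328). The acid phosphatase APS1 (Gene_41012) stood at 75.8 and 25.3 CPM in spring and at 0.106, 0 and 0.0425 CPM in autumn (9.92 ± 1.81, adjusted p = 0.0370). The iron transporter homolog VTL5 (8.74 ± 1.44), the proline-rich wall protein TPRP-F1 (7.51 ± 1.53), the cytochrome P450 CYP750A1 (7.38 ± 1.54), a coniferin beta-glucosidase (6.67 ± 1.47), XTHA (5.86 ± 1.06, given with the wall genes) and GASA2 (5.83 ± 1.01), a gibberellin-regulated peptide, were next. With the tree as a block GASA2 and XTHA stayed called (adjusted p = 0.0315 and 0.0485), and the other 6 missed the threshold (0.0515 to 0.282). The spring libraries were far apart in several of these, as in GASA2 (Gene_10086) at 89.98 and 12.75 CPM and TPRP-F1 at 156 and 21.6 CPM. CYP750A1 stood at 0.954 and 21.6 CPM, so its spring mean passed 5 CPM only through replicate 2. No order held for all: replicate 2 was higher in the lipid-transfer protein and CYP750A1, replicate 1 in the others named here. The library set aside held 357 CPM of TPRP-F1, 168 CPM of XTHA, 28.8 CPM of APS1, 24.5 CPM of GASA2 and 19.0 CPM of the coniferin beta-glucosidase. It held 1.07 CPM of VTL5, 0.825 CPM of the lipid-transfer protein and 0 CPM of CYP750A1. The root-enriched share was higher in spring (0.104 and 0.293%) than in autumn, and the part of root-enriched features in these rises was not tested. The largest falls by the naming rule, which asks for a best hit and so leaves out the dehydrins, were in RAV2, LEA14-A, WRI1 and both XTH9 features, given before, and in a WAT1-related transporter (Gene_18868), from 78.0, 15.4 and 23.8 CPM to 0.382 and 0.393 CPM (-6.63 ± 1.05, adjusted p = 0.0138), the glycosyltransferase UGT85K4 (Gene_68546, -6.003 ± 0.88) and the GEM-like protein 5 (Gene_70881, -4.94 ± 0.73).

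The same comparison in the 6 needle libraries of Yunquera, fitted together, called 1731 features (8.42%), 970 higher (4.72%) and 761 lower (3.7%) in spring. Of the 248 higher at Ronda, 171 were also higher at Yunquera, which is 69.0% of the Ronda list and 17.6% of the Yunquera list. Of the 269 lower at Ronda, 192 were also lower at Yunquera (71.4% and 25.2%). The sites share no library but share the estimate of spread. Just 2 features were called in opposite directions. The test of the difference between sites called 0 features in edgeR (1369 at an unadjusted p under 0.05) and 220 in DESeq2 (1.07%), 110 in each direction (0.535%), so differences for single genes are given as values.

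**Figure D4:**
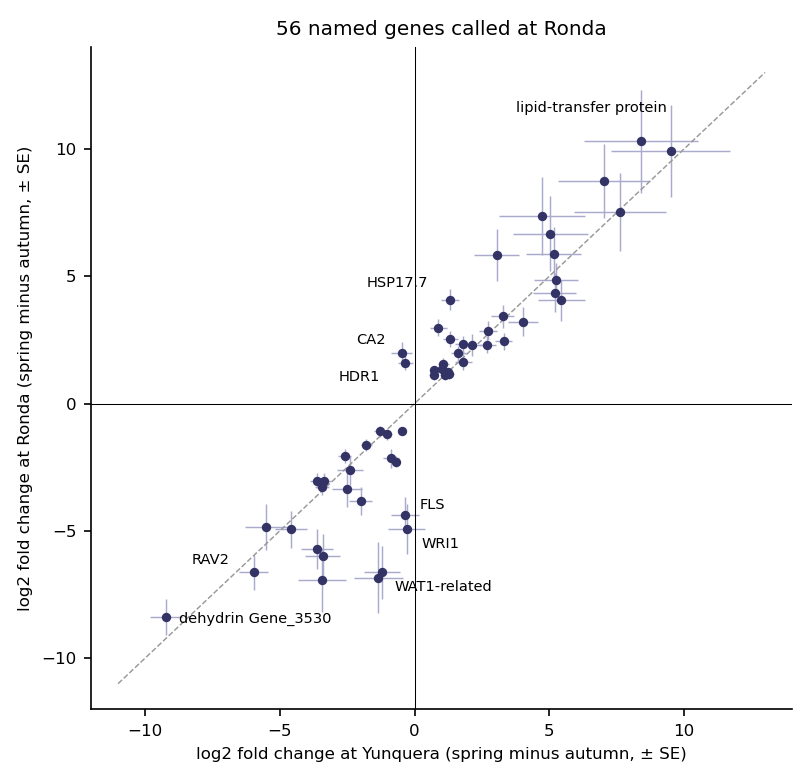
Log2 fold change of the 56 named genes called at Ronda (vertical axis) against their value at Yunquera (horizontal axis), each with its SE, and the line of equal change dashed. The 2 genes with a different sign at Yunquera are CA2 and HDR1.

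Of the 56 named genes called at Ronda, 54 had the same sign at Yunquera, and the adjusted p of the difference ran from 0.176 to 1.00. The exceptions were CA2, with 2.00 at Ronda and -0.47 at Yunquera (adjusted p of the difference 0.418), and HDR1 (Gene_71879), a repressor of flowering in rice, with 1.61 and -0.34 (0.334). Flavonol synthase had a log2 fold change of -4.39 at Ronda and -0.36 at Yunquera (adjusted p of the difference 0.334), WRI1 by -4.92 and -0.29 (0.436), and the WAT1-related transporter by -6.63 and -1.23 (0.334). CYP707A4 had values of 2.98 and 0.88 (0.334). The smallest value was that of GSTU18, with -2.28 and -0.70 (0.176).

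Small heat shock proteins had 9 of 34 tested members higher at Ronda and 1 at Yunquera, where the median change was 0.56. HSP17.7 (Gene_7362) had a log2 fold change of 4.08 at Ronda and 1.31 at Yunquera (adjusted p of the difference 0.308), and HSP23 (Gene_12495) by 3.30 and 0.77 (0.332). Photoprotection genes had a median of -0.33 at Ronda and 0.80 at Yunquera, with 8 of 29 above 0 at Ronda and 20 at Yunquera. None was called higher at either site; the 1 called member was PGR5 (Gene_3093), of cyclic electron flow, which fell at Yunquera (-1.23, adjusted p = 0.0317). ELIP1 (Gene_8363), named after its values were seen, passed at neither site, with -1.42 ± 1.07 at Ronda (adjusted p = 0.566) and 3.48 at Yunquera (adjusted p = 0.0674; adjusted p of the difference 0.571). GBSS1 had values of 0.17 and 2.36 (0.334). None of these differences passed the threshold, which does not show that the sites act alike. Dehydrins fell at both sites, with 4 of 9 called at each and medians of -2.51 and -1.84.

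**Figure D5:**
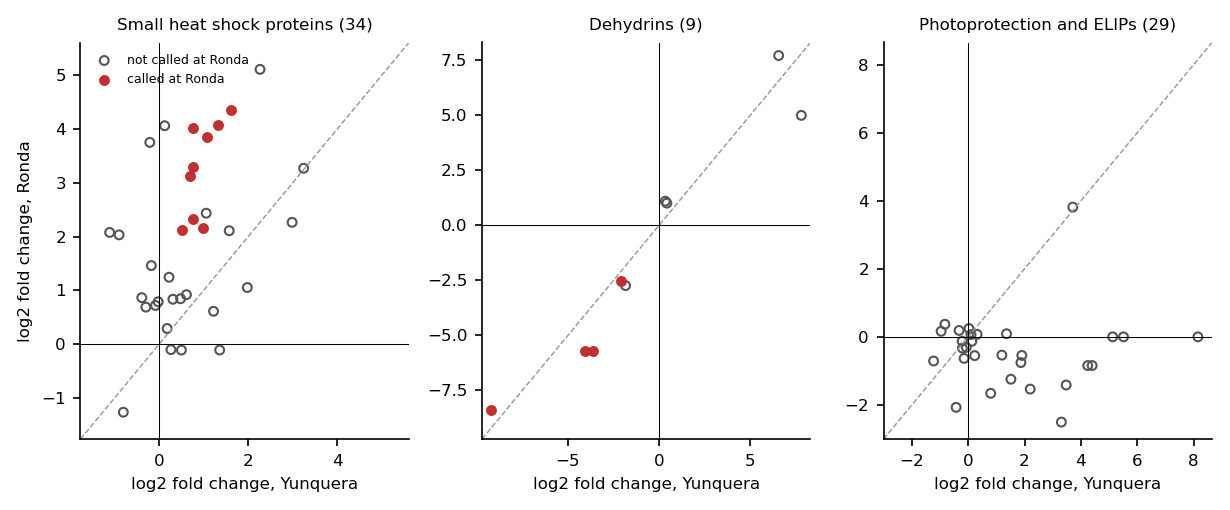
Log2 fold change (spring minus autumn) at Ronda against Yunquera for each tested member of 3 lists, with members called at Ronda in red and the line of equal change dashed. The 9 small heat shock proteins called at Ronda, which were picked by their change there, lie above the line. Most photoprotection members lie below it. The edgeR test of the difference between sites called 0 features.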

How the data were processed

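RNA of needles was sequenced as short reads, and per the labels and submitters' processing notes the authors used CASAVA, HISAT2 and featureCounts to make the deposited table of raw read counts per feature; no source used here states a genome build, versions or the strand setting, so they are not given. Antisense, overlapping and near-identical features therefore cannot be told apart. The table held 51046 features in 24 libraries. The fit used 11 needle libraries in 4 groups of site and season, so that they share the estimate of spread, in edgeR 4.0.16 (R 4.3.3) with TMM scaling, filterByExpr (count minimum 10, total minimum 15) and the quasi-likelihood test with Benjamini-Hochberg adjustment at 0.05. SE was the log2 fold change divided by the square root of F. DESeq2 1.42.0 and the other alternatives are given in the closing section. The procedure was tested on simulated data.

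Genes were named where they passed the test with an absolute log2 fold change of 1 or more, no overlap, and a season's mean at 5 CPM or above: the smallest adjusted p in each direction in each list, the 8 largest rises and falls with a best hit, and the most abundant member of each list. Members and lists were chosen with earlier results of these data known. Lists are described by counts and medians, with no test of their own. The labels number the trees but do not say that a number is the same tree in both seasons. Deviations of same-numbered libraries from their group means correlated at 0.441 and 0.542 at Ronda and at -0.312, 0.239 and 0.438 at Yunquera. Pairs with different numbers ran from -0.542 to 0.175 at Ronda and from -0.618 to 0.435 at Yunquera. With 2 spring libraries at Ronda the deviations of one mirror those of the other, so these values cannot decide whether trees were paired. Intervals and the bound of 3 counts cover counting error only.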

Additional observations from a re-analysis of the deposited data

Results flagged for a closer look

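The library labelled as needles of Ronda in spring, replicate 3, which enters none of the comparisons, held 1.46% of its counts in the 37 root-enriched features, above the 0.0139 to 0.293% of the 11 other needle libraries. The list was chosen after the data were seen, and where the library departs from its label was not tested.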

How the results depend on the processing

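The number of features called at Ronda (517) moved to 1995 with DESeq2, 54 with the replicate block and 1302 with the replicate block without the needle libraries of tree 1, and ran from 93 to 757 when 1 needle library was left out. At Yunquera (1731) it was 3586 with DESeq2, 825 with spring replicate 3 of Ronda put back, 677 with the replicate block and 3160 with the block without tree 1, and 490 to 2047 with 1 library left out. For the difference between sites (0) it was 220 with DESeq2, 11 with the block without tree 1, and 0 to 2 with 1 library left out. RLE scaling (507 at Ronda), no filter (463) and a fit of the 5 Ronda libraries (601) stayed within 1.5 times of the count. The cause of these shifts was not tested. Of the 56 named genes called at Ronda, 10 were called with the replicate block and 38 with the library put back. The 124 genes counted below also include genes not called at Ronda, which had no call to lose. Among genes named in the report, 2 that were not called changed sign: GBSS1 (Gene_39210, 0.17) was at -0.002 with the replicate block, with or without tree 1, and ran from -0.403 to 0.631 with 1 library left out, and FBA1 (Gene_4041, 0.32) was at -0.235 with the library put back. Of 124 genes named in the text, 92 kept their direction but missed the threshold with the replicate block, 37 with the library put back, 79 without spring replicate 1 and 75 without spring replicate 2; with RLE scaling and DESeq2 none of those called was lost.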

Other observations

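The genes given here lie outside the lists and were chosen after their values were seen, from called features, so they stand as single values and not as a group. COR413IM1 (Gene_5089), a cold-regulated membrane protein of the chloroplast in Arabidopsis, stood at 238.5 and 267 CPM in spring and at 1509, 1730 and 1239 CPM in autumn (log2 fold change -2.56 ± 0.24, adjusted p = 0.00274), and was called with the tree as a block. A second COR413IM1 feature (Gene_34982) fell by 3.09 on the log2 scale, COR413PM2 (Gene_5317) by 3.05, the membrane protein RCI2B (ap_30937, 1 to 831) by 2.99 and the temperature-induced lipocalin TIL (Gene_16778) by 1.77. The seasons did not overlap in these 5, as in all 517 called features. Alcohol dehydrogenase ADH1 (Gene_11275), an enzyme of fermentation, stood at 39.3 and 37.7 CPM in spring and at 254, 352 and 253 CPM in autumn (-2.89 ± 0.23, adjusted p = 0.00231).

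In the same way CET1 (ap_13976, 2 to 1203), of the family that holds FT and TFL1 in Arabidopsis, fell from 183, 99.1 and 160 CPM to 8.59 and 8.98 CPM (-4.07 ± 0.42, adjusted p = 0.00310). All 3 called features with the best hit VTC2, an enzyme of ascorbate synthesis, rose; Gene_13529 stood at 1771 and 1300 CPM in spring and at 546, 579 and 620 CPM in autumn (1.4 ± 0.18, adjusted p = 0.00535). With the library set aside put back, VTC2 (Gene_13529) missed the threshold (adjusted p = 0.229).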
